A study of Mus musculus with 6 samples.

Results

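The transcripts described here encode 8 peptide hormones of enteroendocrine cells (Gcg, Gip, Cck, Sct, Sst, Nts, Pyy and Ghrl) and 2 granins, Chga and Chgb. The genes were taken as a list of named members, chosen with earlier results of these data known. Each was represented by 1 probe set annotated to that gene alone, so 10 of 13042 compared genes are described and no second probe set had to be set aside. The 6 Affymetrix arrays held RNA of whole mouse small intestine, flushed and frozen, from a study of the deletion of Fitm2, whose product helps lipid droplets to form at the endoplasmic reticulum. KO mice carried ROSA26CreERT2 together with the L/L alleles, and L/L mice carried the same alleles without Cre; all mice of both genotypes were given tamoxifen at 100 µg per g body weight, by the labels on days 1, 2 and 3. The KO pools of days 2, 3 and 5 combined RNA of 7, 6 and 7 mice, and the L/L pools of the same days that of 6, 6 and 8 mice. A single pool was hybridised per genotype and day, which leaves no replicate within a day and hides the spread between mice. Cre from the ROSA26 locus is not restricted to the intestinal epithelium, and loss of Fitm2 cannot be told apart from the presence of CreERT2 in this design. Neither age nor sex of the mice is given in the labels, nor whether mice killed on days 2 and 3 had received every dose.

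Enteroendocrine cells are scattered hormone-secreting cells of the gut epithelium that arise from the same crypt stem cells as enterocytes, goblet cells and Paneth cells. They read the luminal content, fat included, and release peptides that act on the pancreas, gallbladder, stomach, vagus nerve and brain. Which peptide a cell makes depends on its position along the gut and on its age: cells with Gip, Cck, Sct and Ghrl are commonest in the upper small intestine, and cells with Gcg, Pyy and Nts towards the ileum. Granins are acidic proteins that help to pack hormones into dense-core granules and are found in most of these cells.

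Expression was read as probe set intensity on a linear scale, and all differences below are on the log2 scale, so that 1 is a 2-fold difference. The median intensity of all probe sets lay between 58.4 and 59.7 on the KO arrays and between 57.7 and 59.3 on the L/L arrays. The dim genes removed had a mean below 38.9, and all 10 hormone and granin genes lay above that level on every array, with a lowest intensity of 133. Fitm2 itself had intensities between 119.6 and 127 in KO and between 193 and 223 in L/L, without overlap (mean difference -0.76, limma adjusted p = 0.125 over all genes). Where its probe set lies relative to the deleted part was not given in the sources used here. With 6 arrays in all, the number of arrays limits the precision of every value. In RNA of whole tissue, fewer cells of a type and less RNA per cell cannot be told apart.

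The incretins, which raise insulin secretion after a meal, had the widest differences on day 5. Gip, the hormone of duodenal K cells, had intensities of 2471, 2513 and 2943 in KO on days 2, 3 and 5, against 2409, 2037 and 1395 in L/L. Gcg, whose product is cut to GLP-1 and GLP-2 in L cells, had intensities of 421, 408 and 588 in KO, against 384, 302 and 271 in L/L. All 3 KO arrays lay above all 3 L/L arrays for both genes, and the gap was narrow on day 2 and wide on day 5, when Gip was 2.11-fold and Gcg 2.17-fold higher in KO.

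The peptides of the distal small intestine followed different courses. Nts, neurotensin, a peptide released by fat that slows gut motility and aids lipid absorption, had intensities of 1737, 1779 and 2830.0 in KO, against 1650.3, 1674 and 1599 in L/L. Its L/L arrays were nearly level, and only the KO array of day 5 stood apart, 1.77-fold above L/L. Pyy, peptide YY, which restrains appetite and gastric emptying, had intensities of 422, 402 and 439 in KO, against 373, 373 and 345 in L/L. The genotypes did not overlap for Pyy either, but the gap was small on each day, at 0.18, 0.11 and 0.35.

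Sst, somatostatin, the paracrine inhibitor of most other gut hormones, had intensities of 539.7, 514 and 643 in KO, against 573, 388 and 330.3 in L/L. KO was slightly below L/L on day 2 and 1.95-fold above it on day 5. Sst is also made by enteric neurons and by the pancreas.

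The other hormones of the upper small intestine had smaller differences on day 5. Cck, cholecystokinin, which contracts the gallbladder and stimulates pancreatic enzyme release, had intensities of 274, 305 and 279 in KO, against 299, 301 and 209.9 in L/L. Sct, secretin, which drives bicarbonate secretion, had intensities of 874, 892 and 721 in KO, against 877, 803 and 589 in L/L. KO and L/L overlapped for both genes, and on day 5 KO was 0.41 higher for Cck and 0.29 higher for Sct. Ghrl, the precursor of the orexigenic peptide ghrelin, had intensities of 205, 212 and 177 in KO, against 224, 153 and 133 in L/L. For Ghrl the KO minus L/L differences of the 3 days were -0.13, 0.47 and 0.41, that of day 3 being the largest of the 10 genes on that day, and the groups overlapped.

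The granins, which most enteroendocrine cells contain whatever hormone they make, were close to L/L on day 2, as Gip was. Chga had intensities of 339.6, 365 and 405 in KO, against 346, 324 and 199 in L/L. Chgb had intensities of 1450.4, 1637 and 1987 in KO, against 1424, 1285 and 981 in L/L. Both were 2.03-fold above L/L on day 5, and for Chgb no KO array reached down into the L/L range.

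**Figure D1:**
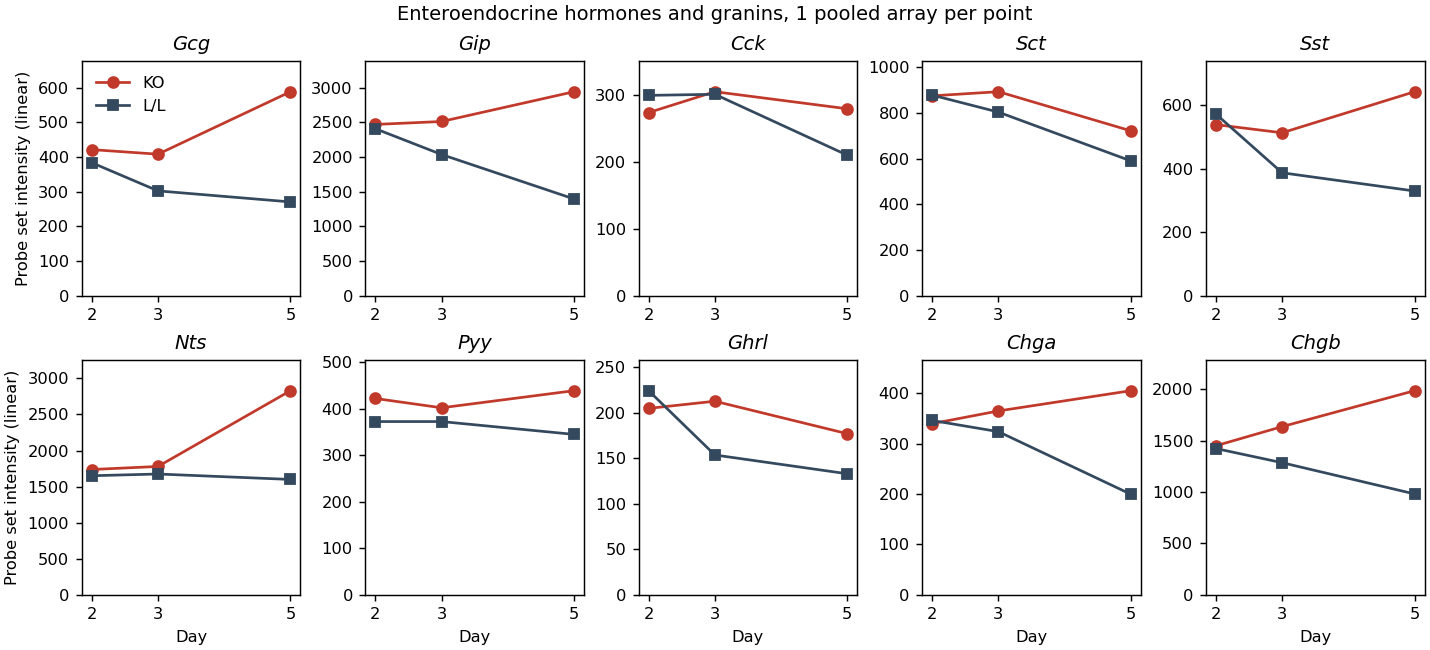
Probe set intensity (linear, a separate scale for each gene) of the 8 hormones and 2 granins on days 2, 3 and 5. The vertical axis starts from 0, and the horizontal axis is the day given in the labels. Red circles are KO and dark squares L/L, each point 1 array of pooled RNA. L/L is at its lowest on day 5 in all 10 panels, and KO is at its highest on day 5 in 7 of them.

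In the comparison of KO with L/L over the 3 days, which asks what separated the genotypes whatever the day, no hormone or granin passed the limma test. All 10 had a positive mean difference, between 0.10 for Cck and 0.56 for Gcg, with a median of 0.36, while the median over all 13042 genes was 0.01. These means rest largely on day 5: without it the median was 0.15, Gip averaged 0.17 and Cck averaged -0.056. Gcg averaged 0.56 ± 0.51 (SD over 3 days, SE 0.19, limma adjusted p = 0.394), Gip 0.47 ± 0.54 (SE 0.21, limma adjusted p = 0.413) and Chgb 0.46 ± 0.51 (SE 0.19, limma adjusted p = 0.410). For the other 7 genes the limma adjusted p lay between 0.394 and 0.709. Of all genes, 0.023% passed in either direction. At an unadjusted p under 0.05, 2 of the 10 were higher, Gcg and Pyy, against 7.68% of all genes. KO was higher on all 3 days in 5 of the 10 genes (Gcg, Gip, Nts, Pyy and Chgb) and in 22.1% of all genes. The same 5 genes had all KO arrays above all L/L arrays, which held for 7.48% of all genes.

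The change of the genotype difference with day was tested in a second fit, which asks whether the genotypes moved apart over the days. The difference increased with day in Gcg, Gip, Chga and Chgb, which passed the limma test over all genes. It grew by 0.36 per day for Chga (SE 0.05, limma adjusted p = 0.0469), by 0.35 for Gip (SE 0.05, limma adjusted p = 0.0454), and by 0.33 for both Gcg and Chgb (SE 0.05, limma adjusted p = 0.0454 for each). In all, 160 genes, 1.23%, passed in either direction. Sst had a slope of 0.34 per day (limma adjusted p = 0.0513) and Nts of 0.27 (limma adjusted p = 0.103), and neither passed. Slopes were 0.18 for Cck, 0.15 for Ghrl, 0.09 for Sct and 0.06 for Pyy, with limma adjusted p between 0.128 and 0.570. Before adjustment, 7 of the 10 genes had a rising difference at p under 0.05, against 10.6% of all genes. Because the list was chosen with earlier results known, shares of all genes are set beside counts of the 10 as description only. With 3 differences per gene, this fit had 1 residual degree of freedom and 4.76 prior ones taken from all genes. The SE therefore rests mostly on a variance shared by all genes. The p-values follow mainly the size of the slope, and less how closely the differences of a gene follow a line over the days. On simulated data 9 of 70 slope calls at 0.05 were false, in a single draw. This share depended on how gene variances were drawn, and in the version kept they came from the fit over the 3 days. The simulation thus does not give the error rate in these data, but the adjusted p-values just under 0.05 may overstate how firm the 4 calls are. The 4 calls were lost when no filter on dim genes was used (limma adjusted p between 0.169 and 0.174) and when day 5 was set against days 2 and 3 in place of a slope (limma adjusted p between 0.0939 and 0.134), while the estimates stayed positive.

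**Figure D2:**
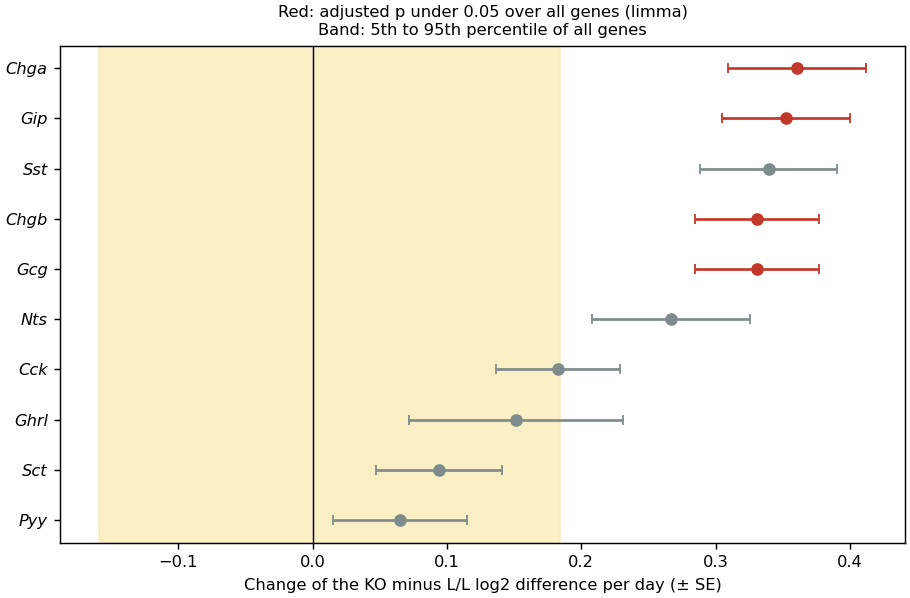
Change of the KO minus L/L log2 difference per day (horizontal axis) for each gene, with bars of ± 1 SE from the limma fit; red points have an adjusted p under 0.05 over all genes, and the band spans the 5th to 95th percentile of all genes. All 10 slopes are positive and 6 lie above the band.

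Set out by day, the 10 genes lay on both sides of 0 on day 2 and above it on days 3 and 5. On day 2 the KO minus L/L differences ran from -0.13 to 0.18, with 5 genes higher and 5 lower and a median of 0.01, equal to the median of all genes to that precision. On day 3 all 10 were higher in KO, by 0.02 to 0.47 with a median of 0.24, while 47.5% of all genes were higher. On day 5 all 10 were again higher, by 0.29 to 1.12 with a median of 0.89, against 54% of all genes. Gcg, Gip, Chga and Chgb reached 2-fold on day 5, as 1.28% of all genes did in that direction. Sst (0.96) and Nts (0.82) came next, and these 6 genes lay above the 95th percentile of all genes, 0.59. A single day has 1 array per genotype and therefore no test.

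**Figure D3:**
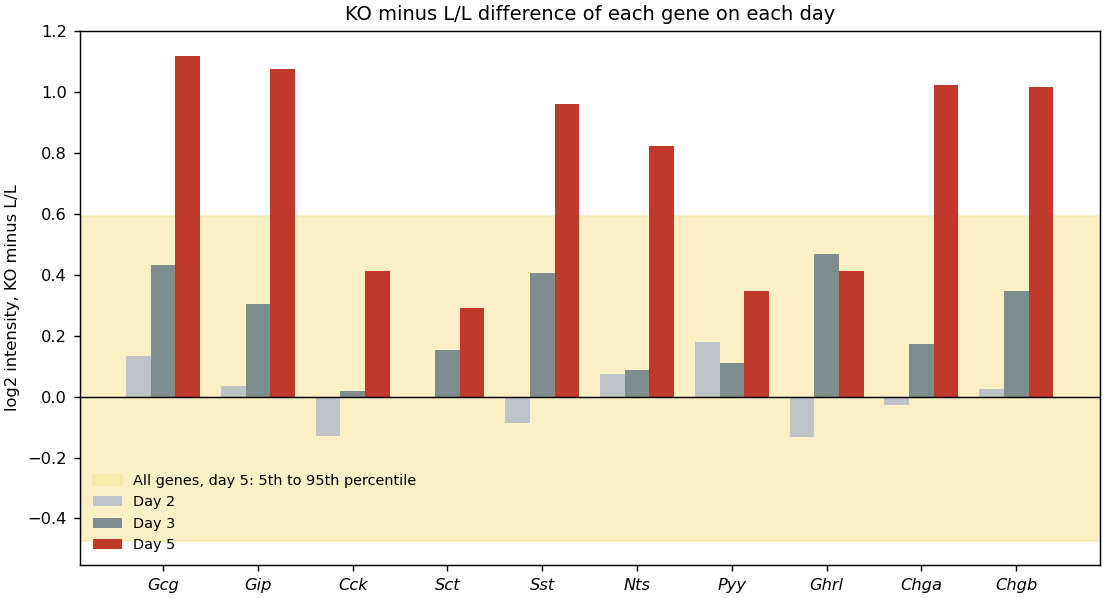
KO minus L/L difference in log2 intensity (vertical axis) for each gene on day 2 (light grey), day 3 (dark grey) and day 5 (red); each bar compares 1 KO array with 1 L/L array, and the band spans the 5th to 95th percentile of all genes on day 5. Day 2 bars lie near 0, and Gcg, Gip, Sst, Nts, Chga and Chgb lie above the band on day 5.

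Among the L/L arrays, which carry no genotype difference, hormone and granin transcripts were lowest on day 5. All 10 were lower on L/L day 5 than on both L/L day 2 and L/L day 3, as were 38.7% of all genes. L/L day 5 minus L/L day 2 ran from -0.80 to -0.05 with a median of -0.56, and 8 of the 10 genes lay below the 5th percentile of all genes, -0.40. Chga (-0.80), Sst (-0.80), Gip (-0.79) and Ghrl (-0.75) were lowest, and Nts (-0.05) and Pyy (-0.11) were nearly level. None of the 10 was 2-fold lower, as were 0.215% of all genes. On L/L day 3 the median was -0.14 against L/L day 2, with 7 genes lower, Sst (-0.56) and Ghrl (-0.55) most so. Over all genes that median was 0.03, and 41.7% were lower. Cck (0.01) and Nts (0.02) were slightly higher there, and Pyy had the same intensity on both arrays, 372.7. These arrays are single pools of different mice, so day, pool and tamoxifen doses received cannot be told apart.

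Within KO the same interval had the opposite sign for most genes. KO day 5 minus KO day 2 was positive in 8 of the 10, against 50.4% of all genes, with a median of 0.25. Only Nts (0.70) lay above the 95th percentile of all genes, 0.56, and Gcg (0.48) and Chgb (0.45) came next. Sct (-0.28) and Ghrl (-0.21) were lower on day 5 in KO as they were in L/L. The difference between days was larger in size in L/L than in KO in 9 of the 10 genes, the exception being Nts. For Gip it was 0.25 in KO and -0.79 in L/L, and for Chga 0.25 in KO and -0.80 in L/L. In Gcg both were alike in size, at 0.48 in KO and -0.50 in L/L. The KO minus L/L differences and the differences between days within L/L share the same L/L arrays and are not separate evidence. Both extremes fell on day 5, with the KO array highest of 6 and the L/L array lowest, in 7 of the 10 genes and in 6.3% of all genes. When KO day 5 was set against the mean of L/L days 2 and 3, which leaves out the L/L day 5 array, 7 of the 10 genes were higher, the median was 0.34 in place of 0.89, and the range was -0.22 (Sct) to 0.79 (Gcg), while 49.9% of all genes were higher; this comparison was chosen after the values were seen.

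**Figure D4:**
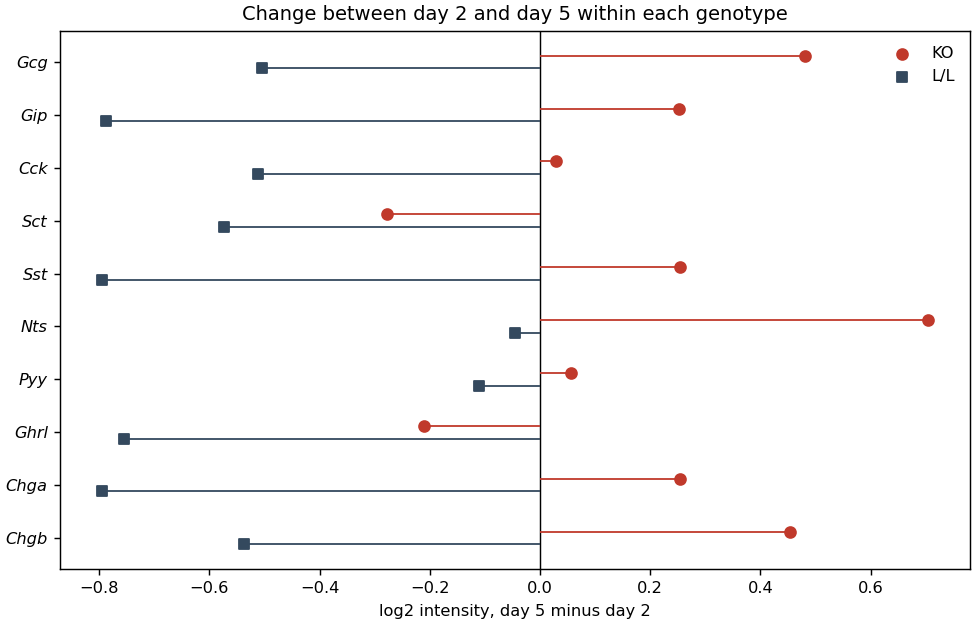
Day 5 minus day 2 in log2 intensity (horizontal axis) for each gene within KO (red circles) and within L/L (dark squares), each from 2 arrays of different pools. All L/L points lie below 0, between -0.80 and -0.05, and 8 of 10 KO points lie above it.

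The sequences around their annotated starts are shown for the genes that hold a cyclic AMP response element or a TATA box among those with the widest differences. RefSeq windows of 250 bases before to 50 bases after a start (build GRCm38.p6) were found for all 10 genes, 14 windows in all. Motifs were searched on both strands: TGACGTCA, the palindromic response element bound by CREB; its shorter core TGACG, which the palindrome contains; TATAAA; and the E-box CANNTG, the kind of site that NeuroD1 binds. Capitals mark TGACGTCA, TGACG or TATAAA on either strand, and positions count from 1 at the annotated start to the first base of the match.
Sst (chr16:23890795-23891094, minus strand): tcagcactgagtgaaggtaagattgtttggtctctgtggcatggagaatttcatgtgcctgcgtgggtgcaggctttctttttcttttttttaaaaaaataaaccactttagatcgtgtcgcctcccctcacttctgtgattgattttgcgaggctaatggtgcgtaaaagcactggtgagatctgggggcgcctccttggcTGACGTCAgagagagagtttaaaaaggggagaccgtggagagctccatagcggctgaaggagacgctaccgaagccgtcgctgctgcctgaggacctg
Chgb (chr2:132781392-132781691, plus strand): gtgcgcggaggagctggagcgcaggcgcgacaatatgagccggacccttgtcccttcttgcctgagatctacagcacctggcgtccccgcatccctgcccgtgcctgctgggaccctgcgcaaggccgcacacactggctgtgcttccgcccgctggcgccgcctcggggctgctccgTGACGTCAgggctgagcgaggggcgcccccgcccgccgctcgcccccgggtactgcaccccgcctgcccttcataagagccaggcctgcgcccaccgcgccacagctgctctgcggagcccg
Chga (chr12:102554691-102554990, plus strand): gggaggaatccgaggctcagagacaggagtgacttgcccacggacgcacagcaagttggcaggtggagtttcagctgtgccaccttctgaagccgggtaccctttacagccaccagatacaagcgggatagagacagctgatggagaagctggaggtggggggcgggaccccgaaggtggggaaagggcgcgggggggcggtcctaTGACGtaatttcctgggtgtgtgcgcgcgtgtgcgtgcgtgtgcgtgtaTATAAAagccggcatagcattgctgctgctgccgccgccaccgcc
Gcg (chr2:62483604-62483903, minus strand): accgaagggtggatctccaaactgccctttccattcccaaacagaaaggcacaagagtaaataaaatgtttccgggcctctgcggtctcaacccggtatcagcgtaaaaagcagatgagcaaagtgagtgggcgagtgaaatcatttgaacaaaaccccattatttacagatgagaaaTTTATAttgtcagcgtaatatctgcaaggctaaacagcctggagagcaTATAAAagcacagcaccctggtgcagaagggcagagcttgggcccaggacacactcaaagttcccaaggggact

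The palindrome TGACGTCA stood at position -48 in the Sst window and at -72 in the Chgb window, which makes 2 of 14 windows (14.3%), against 1.79% of 32841 windows of the same length in the RefSeq table. The core TGACG occurred in 5 windows (35.7%), those of Sst, Chgb, Chga, Cck and Nts, against 20.8% of all windows, and in Chga at position -44. TATAAA occurred in 3 windows (21.4%), against 13.6%: in Gcg at -24 and, on the other strand, at -72, in Sct at -28 and in Chga at position 6. An E-box occurred in all 14 windows and in 72.3% of all windows. The windows are not all separate sequences, since the 2 of Pyy overlap and share an E-box, as do 2 of those of Ghrl. By gene, the palindrome was found in 2 of 10, the core in 5, TATAAA in 3 and an E-box in all 10. The Gip window held an E-box and none of the other 3 motifs. These are matches of letters, and neither binding nor a cause is read from them.

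Companion genes, chosen for a link to enteroendocrine cells or their hormones, were described from lists by role. The lists also hold receptors of the hormones and enzymes that clear them, so pooled counts do not describe the lineage alone. Of 88 companion genes, 53 were compared, and none passed the limma test over the 3 days or for change with day after adjustment over all genes. At an unadjusted p under 0.05, 3 of 53 were higher over the 3 days (Tph1, Scg5 and Ffar4), against 7.68% of all genes, and none lower. For change with day 13 of 53 had a rising difference, against 10.6% of all genes. A falling one was found in 2, Ddc (KO minus L/L -0.43 on day 5) and Mme (-0.38). In either direction, 2404 of 13042 genes reached that unadjusted level for change with day, and 1603 over the 3 days. Their median differences on the 3 days were -0.02, 0.08 and 0.08, and 35 of 53 were higher in KO on day 5, against 54% of all genes.

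Among other hormones and amine enzymes, 6 of 9 were compared. Iapp, amylin, known best from pancreatic beta cells, had intensities of 70.2, 68.5 and 82.4 in KO on days 2, 3 and 5, against 74.96, 44.8 and 42.8 in L/L. As for Sst, KO was slightly below L/L on day 2 and above it on days 3 and 5. Tph1, the rate-limiting enzyme of serotonin synthesis in enterochromaffin cells, had 89.1, 77.5 and 74.5 in KO, against 72.7, 62.7 and 54.6 in L/L (mean 0.35, limma adjusted p = 0.363). Tph1 was thus higher in KO by 0.29, 0.31 and 0.45, already from day 2, and its intensities were lower at later days in both genotypes. Penk averaged 0.18 and Ddc, the decarboxylase that completes serotonin synthesis, averaged -0.18.

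Granule proteins had a median difference of 0.24 on day 5 over 17 genes of 19, of which 13 were higher in KO. Scg5, a chaperone of the prohormone convertase PC2, had the largest mean difference at 0.38 (limma adjusted p = 0.381), with 0.69 on day 5. Pcsk1n, an inhibitor of the convertase PC1, averaged 0.25, Rab27a, a granule-docking GTPase, 0.23, and Scg3, a granin-like granule protein, 0.21. Of the processing enzymes, 4 of 6 were compared. Cpe, the carboxypeptidase that trims prohormone fragments, had 2073, 2073 and 3410 in KO, against 2073, 2019 and 2336 in L/L, so that it stood apart on day 5 alone, by 0.55. Pam, which amidates peptides such as Cck and secretin, was 0.43 higher on day 5, while Pcsk1, the convertase that releases GLP-1, differed by 0.00 on day 5 and 0.06 on average. Qpct averaged -0.03.

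The transcription factors that make enteroendocrine cells lay on both sides of 0 on day 5, with 5 of the 10 compared higher in KO. Over 10 of 20 such genes the median difference was -0.04, 0.06 and -0.01 on days 2, 3 and 5. Neurog3, which commits crypt progenitors to the lineage, had 80.6, 91.4 and 41.4 in KO, against 79.5, 72.0 and 57.7 in L/L, a KO minus L/L difference of -0.48 on day 5 (mean -0.04, limma adjusted p = 0.927). Neurod1, which acts downstream of Neurog3, had 150.2, 146 and 139.8 in KO, against 159.6, 114 and 135 in L/L. The largest mean difference was that of Hhex (0.26), a factor of somatostatin cells, followed after Neurod1 by Isl1 (0.08) and Insm1 (0.06). Neurog3 and Insm1, at 41.4 and 41.9 on KO day 5, were there close to the 38.9 level under which genes were removed.

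Nutrient sensors, hormone receptors and clearance enzymes gave no call either. Of the nutrient sensors and channels, 6 of 12 were compared, and Ffar4, a receptor for long-chain fatty acids, had the largest mean difference at 0.42 (limma adjusted p = 0.398), from dim intensities of 45.1, 53.3 and 72.1 in KO, against 45.5, 36.9 and 43.5 in L/L. Kcnj11, a subunit of the ATP-sensitive potassium channel, averaged -0.12. Of 17 hormone receptors with a probe set, 11 were below the 38.9 level on every array, among them Glp1r, Gipr and Cckar. The 6 receptors compared had a median of 0.03 on day 5, with Cckbr at a mean of -0.10 and Sctr, the secretin receptor, at -0.02. Most of these receptors were dim: Sstr4 (34.2 to 45.4 over the 6 arrays), Npy4r (36.1 to 43.7), Sstr5 (42.3 to 51.5) and Cckbr (45.8 to 50.9). Sctr and Gcgr were brighter. Dpp4, the peptidase that inactivates GLP-1 and GIP, had 7298, 7176 and 6441 in KO, against 6943, 7212 and 7695 in L/L, a mean of -0.06. Mme, neprilysin, averaged -0.19.

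**Figure D5:**
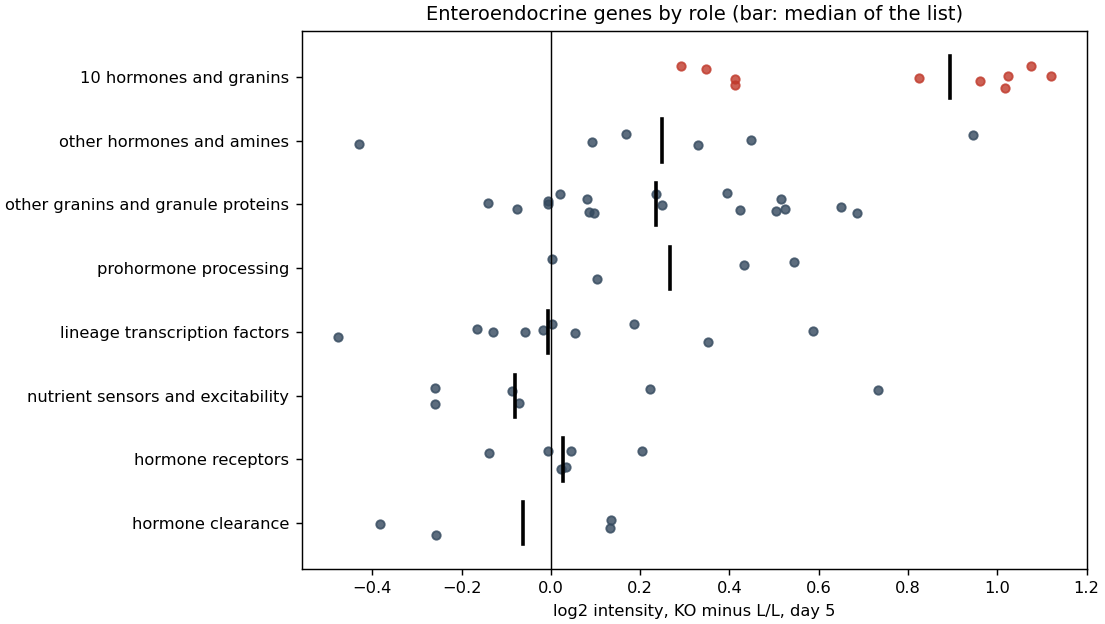
KO minus L/L difference in log2 intensity on day 5 (horizontal axis) for the 10 hormones and granins (red) and for companion genes grouped by role (dark); each point is 1 gene from 1 KO and 1 L/L array, vertical scatter within a row has no meaning, and the black bar is the median of the list. The median is 0.89 for the hormones and granins, 0.24 for other granule proteins and -0.01 for lineage transcription factors. Many of the lineage transcription factors and hormone receptors were dim, so the rows compare genes of unlike intensity.

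Other cell types that make the same peptides, or that share the secretory lineage, were read from marker lists by their summed intensity, and their part in the hormone differences was not tested. Each sum covers every gene of the list with a probe set of its own, including those removed as dim. Counts in brackets and medians are of the genes compared. Enteric neuron and glia markers (14 of 17 compared) summed to between 1549 and 1858 in KO and between 1483 and 1647 in L/L, with a median difference of 0.17 on day 5. Pancreatic acinar markers (7 of 11) summed to 737 to 990 in KO and 698 to 921 in L/L, with median differences of -0.09, 0.44 and -0.07 on days 2, 3 and 5. Within L/L, day 5 minus day 2 had a median of -0.29 for them, and 6 of the 7 were lower on day 5, as were 51.6% of all genes. Several other lists were mostly lower there too: 9 of 10 lineage transcription factors, 14 of 17 granule proteins and 6 of 7 goblet cell markers. So were 5 of 5 tuft cell markers, 4 of 5 Paneth cell markers and 5 of 6 nutrient sensors. Regional markers were mostly lower as well, 7 of 8 proximal and 6 of 8 distal genes. Fewer were lower among enteric neuron and glia markers (6 of 14), enterocyte markers (4 of 7), hormone receptors (3 of 6), processing enzymes (1 of 4) and clearance enzymes (1 of 4). The islet markers compared (3 of 6) did not move together: on day 5 the KO minus L/L difference was 0.94 for Iapp, described above, -0.22 for Slc2a2 and -0.55 for Ins2, and Ppy lay below the 38.9 level on every array. Iapp (42.8 to 82.4) and Ins2 (46.6 to 77.1) were dim over the 6 arrays, while Slc2a2 had intensities of 5897 to 6935. These values therefore do not say how much islet tissue the pools held. Stomach markers (7 of 11) summed to 702 to 772 in KO and 742 to 787 in L/L, with Gast, gastrin, below the 38.9 level on every array. Paneth cell markers (5 of 5) did not overlap in their sums, at 27887 to 39180 in KO and 22851 to 24495 in L/L, with a median difference of 0.14, 0.50 and 1.07 on days 2, 3 and 5. Goblet cell markers (7 of 7) summed to 79895 to 83619 in KO and 71662 to 79328 in L/L, so the sums did not overlap but came close. Their median differences were 0.03, 0.28 and 0.09 on days 2, 3 and 5. Among single genes, 7.48% had all KO arrays above all L/L arrays. The brightest markers weigh most in such sums, as Lyz1 (23008 on KO day 5) does for Paneth cells and Zg16 (24740 on KO day 5) for goblet cells. Tuft cell markers (5 of 6) summed to 378 to 430 in KO and 359 to 426 in L/L, and enterocyte markers (7 of 8) to 115863 to 119976 in KO and 113669 to 120655 in L/L. Among regional markers, proximal genes (8 of 9) had a median difference of 0.01 on day 5 and distal genes (8 of 8) of -0.24. Their members differed widely, from -0.52 (Gata4) to 1.30 (Cybrd1) for proximal genes and from -0.93 (Osr2) to 0.88 (Slc10a2) for distal genes. Cybrd1 also passed for change with day (0.46 per day, limma adjusted p = 0.0414). The 2 colon markers compared (2 of 6) were at -0.75 (Slc26a3) and 0.03 (Ly6g6c), with Car1 and Aqp8 below the 38.9 level on every array.

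The 10 profiles resembled each other to different degrees over the 6 arrays. Each gene was set against the mean centred log2 profile of the other 9, and Pearson's r was 0.997 for Gip, 0.960 for Chgb, 0.958 for Chga and 0.943 for Sst, but 0.607 for Sct and 0.573 for Nts. Outside the lists, the 5 genes whose profile was most like the mean of the 10 were Mtcl1 (r = 0.995), Kmo (r = 0.989), Csf1r (r = 0.987), Nkain1 (r = 0.986) and Bgn (r = 0.986). Of these, Csf1r, a receptor of macrophages, had intensities of 906, 933 and 1084 in KO, against 872, 796 and 649 in L/L. Bgn, a matrix proteoglycan, had 734, 703 and 888 in KO, against 699.8, 576 and 457 in L/L. The KO minus L/L difference on day 5 was 0.74 for Csf1r and 0.96 for Bgn, but only 0.24 for Mtcl1, since r takes no account of size. These correlations are over 6 arrays that share genotype and day, and are given as a description.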

How the data were processed

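The deposited table gave the authors' processed intensity for 45101 probe sets on 6 Affymetrix arrays on a linear scale; Partek and RMA are named, per the submitters' processing notes, without roles or versions. Intensities ran from 3.82 to 31146 and log2 was computed with no offset and no further normalization. Genes were named from the platform annotation (34945 probe sets with 1 gene, 932 with several and left out, 9160 not listed), with symbols updated to GRCm38.p6. The brightest probe set per gene was kept, and genes with a mean above the 40th percentile of probe sets (log2 5.28) were compared, 13042 of 18193.

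limma 3.58.1 in R 4.3.3 (lmFit, eBayes, two-sided, Benjamini-Hochberg over all genes at 0.05) tested genotype with day as a factor, and genotype times centred day beside both. Residual degrees of freedom were 2 and 1, with priors of 3.03 and 4.76. Whether the pools came from separate litters is not stated, so p-values measure the spread between these arrays only. Both fits were tested on simulated data from a single draw. Of the calls at 0.05, 10 of 153 were false over the 3 days and 9 of 70 for change with day. A first version, which drew gene variances from limma's posterior estimates, gave a larger share of false calls for change with day than the version kept. The version kept drew the variances of both simulations from the prior of the fit over the 3 days (3.03, not 4.76). Its share of false calls for change with day therefore need not hold for these data.

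The members and gene lists were chosen with earlier results of these data known. Named companions were up to 4 per list with the largest mean difference, plus Pcsk1, Pcsk2, Neurog3, Neurod1, Tph1, Dpp4 and Fitm2 and 2 per marker list; the receptors and markers below the threshold were named after their values were seen. The 5 genes outside the lists with the highest Pearson r were also named. Pcsk2 had no probe set of its own here and was not analysed. Alternatives covered probe sets, scaling, offset, filter, eBayes settings, days and day coding.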

Additional observations from a re-analysis of the deposited data

Results flagged for a closer look

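In 4 genes the size of the genotype difference itself changed with day by limma's test over all genes. The KO minus L/L difference grew by 0.33 per day for Gcg, 0.35 for Gip, 0.36 for Chga and 0.33 for Chgb on the log2 scale, positive in each. On day 5 these genes stood at 588, 2943, 405 and 1987 intensity units in KO, against 271, 1395, 199 and 981 in L/L. The L/L day 5 array was the lowest of 6 for all 4, and KO day 5 minus the mean of L/L days 2 and 3 was 0.79, 0.41, 0.28 and 0.55 in the same order of genes. Groups of 1 array per day allow no search for outlying samples.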

How the results depend on the processing

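No hormone or granin passed limma over the 3 days under any of 14 alternatives, with 0 to 6 of the 10 at an unadjusted p under 0.05. Over all genes that test called 3, but 1 with the mean of all probe sets or without day 2, 6 with a linear day term, and 0 without day 3 (606 at an unadjusted p under 0.05). Mean differences stayed positive, except that of Cck without day 5 (-0.056). The median of the 10 was 0.15 without day 5 and 0.53 without day 2, against 0.36 with all days.

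For change with day, limma called 4 of the 10 genes, and 3 to 6 under 8 of 10 alternatives. It called 0 of them without a filter on dim genes and 0 with day 5 set against days 2 and 3, with 7 at an unadjusted p under 0.05 in both. Over all genes the count of 160 became 312 with arrays centred on their median, 550 with an offset of 32, 275 with a filter at the 60th percentile, 531 with a trend in eBayes, and 0 both without a filter (2475 at an unadjusted p under 0.05) and with day 5 against days 2 and 3 (2186). The causes were not tested. Sst passed under 5 of 10 alternatives and Nts under 2. Without probe sets of shared transcripts Gcg and Cck drop out, since each has only 1, of that kind. The day 5 median of 0.89 became 0.34 against the mean of L/L days 2 and 3, an alternative chosen after seeing the data. The other medians by day kept their size within the median absolute difference of all genes, and that of day 2, near 0, was -0.02 under cyclic loess. Depth in the sense of read counts does not apply, and no detection calls were used here.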
